A study of Mus musculus with 8 samples.

Results

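The natriuretic peptide system of the mouse heart was examined through 8 genes: the peptide genes Nppa, Nppb and Nppc, the convertase genes Corin and Furin, and the receptor genes Npr1, Npr2 and Npr3. They were chosen by gene symbol, and each had 1 locus among the 23100 loci of the authors' gene table and 15 of the 35754 listed isoforms between them. RNA came from cardiac ventricles of mice aged 4.5 months, with the atria removed, from 4 Ctrl and 4 DKO animals. Animals of both groups were Sox5fl/fl and Sox6fl/fl, so loxP sites flanked both alleles of Sox5 and of Sox6, which encode SoxD transcription factors. DKO animals were positive for aMHC-Cre, a recombinase driven by the alpha myosin heavy chain promoter that acts in cardiomyocytes, and Ctrl animals were negative, so Cre itself and the loss of Sox5 and Sox6 cannot be told apart. The series title speaks of pressure overload, and the labels record no operation for these animals.

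Natriuretic peptides are hormones that the heart releases when its walls are stretched. Nppa encodes the precursor of atrial natriuretic peptide (ANP) and Nppb that of B-type natriuretic peptide (BNP), both made by cardiomyocytes, while Nppc encodes C-type natriuretic peptide, best known from endothelium and growing bone. Corin, a membrane serine protease of cardiomyocytes, cuts the ANP precursor, and furin, a convertase of the secretory pathway found in most cells, cuts the BNP and C-type precursors. NPR-A (Npr1) and NPR-B (Npr2) are receptors with a guanylyl cyclase domain that make the second messenger cGMP, and NPR-C (Npr3) lacks that domain and clears the peptides. In adult ventricles, Nppa and Nppb are widely used markers of the stress response of heart muscle.

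The start regions of the peptide genes are shown first, because Nppa and Nppb lie side by side and were both higher in DKO ventricles while Nppc was near 0. Each runs from 250 bases before to 50 bases after the RefSeq start of the gene, from 5′ to 3′ on the strand of the gene, in build GRCm38.p6. The FPKM tables (sequenced fragments scaled to transcript length and to library size) use build mm9, so genes were matched by symbol. Nppa is at chr4:148000472-148000771 on the plus strand, Nppb at chr4:147985650-147985949 on the plus strand and Nppc at chr1:86670524-86670823 on the minus strand. Capitals mark each match, on either strand, to 8 short motifs. These were GATAA for GATA factors, TNAAGTG for the homeodomain factor NKX2-5, TCACACC for T-box factors and CATTCC for TEAD factors. ACAAT for SOX factors, TGANTCA for AP-1, TATAAA for the TATA box and the CArG box of SRF were searched as well. The CArG box was sought as CC, then a fixed run of A or T, then GG.
Nppa: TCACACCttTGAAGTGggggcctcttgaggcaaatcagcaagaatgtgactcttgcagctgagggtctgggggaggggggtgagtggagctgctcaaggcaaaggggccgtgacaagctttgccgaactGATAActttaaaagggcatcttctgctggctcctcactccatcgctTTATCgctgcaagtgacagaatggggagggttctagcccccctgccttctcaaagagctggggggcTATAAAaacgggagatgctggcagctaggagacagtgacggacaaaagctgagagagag
Nppb: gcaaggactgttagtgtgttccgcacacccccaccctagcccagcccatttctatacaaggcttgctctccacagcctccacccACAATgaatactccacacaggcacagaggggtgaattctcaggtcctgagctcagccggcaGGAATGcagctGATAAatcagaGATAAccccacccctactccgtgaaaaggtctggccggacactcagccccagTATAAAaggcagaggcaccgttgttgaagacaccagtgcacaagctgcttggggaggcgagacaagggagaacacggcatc
Nppc: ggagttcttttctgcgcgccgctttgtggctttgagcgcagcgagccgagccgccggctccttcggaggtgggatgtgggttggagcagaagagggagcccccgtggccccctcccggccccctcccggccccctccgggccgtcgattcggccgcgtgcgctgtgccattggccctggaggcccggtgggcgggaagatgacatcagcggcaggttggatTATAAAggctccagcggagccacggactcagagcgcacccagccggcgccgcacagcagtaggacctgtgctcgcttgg

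GATAA stood 2 times in the Nppa window, at -121 and, on the opposite strand, at -75 from the start, and 2 times in the Nppb window, at -94 and -83. Of all 32851 RefSeq start regions of that length, 25.4% held GATAA and 5.27% held it 2 times or more. The Nppa window also held TCACACC at -250 (3.98% of all start regions) and TNAAGTG at -241 (11.5%), and the Nppb window held CATTCC at -105 on the opposite strand (14.7%) and ACAAT at -166 (31.0%). TATAAA was in all 3 windows, at -9 in Nppa, -31 in Nppb and -29 in Nppc, against 13.6% of all start regions. TGANTCA (7.81%) and the CArG box (1.63%) matched in none of the 3, and none of the matches overlapped each other. Only exact matches were sought, so sites that differ from a motif by a base were not counted. The Nppa and Nppb windows held 6 and 7 CpG dinucleotides, next to a median of 7 over all start regions, and the Nppc window 29. A match shows where these letters stand and is no evidence of binding.

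Nppa had 1303 FPKM in DKO against 464 FPKM in Ctrl ventricles, 2.81-fold higher. Nppb was at 899 and 448 FPKM, 2.01-fold higher. Each FPKM is the authors' single value for the 4 animals of a genotype, so the spread between animals is not visible, and whether single animals overlapped between groups cannot be seen. In the authors' deposited table both genes carry q = 0.00158, with log2 ratios of DKO over Ctrl of 1.49 and 1.00. A gene is termed called where the authors' Cuffdiff test gave a q of at most 0.05. In these bulk samples, a change in the number of cells and a change of RNA per cell cannot be told apart.

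Of the 8 genes, 7 were tested by Cuffdiff, and 2 of the 7, Nppa and Nppb, were called, both higher. Among all 12133 tested genes, 7.36% were called, 4.30% as higher and 3.06% as lower in DKO. The 8 genes were chosen with earlier results of these data known, so their count beside this share gives no separate support. Nppc (chr1:88562868-88567148 in mm9) was not tested, at 0.0528 FPKM in DKO and 0.0696 in Ctrl. Its transcript was thus listed, but far below every other gene of the group.

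**Figure D1:**
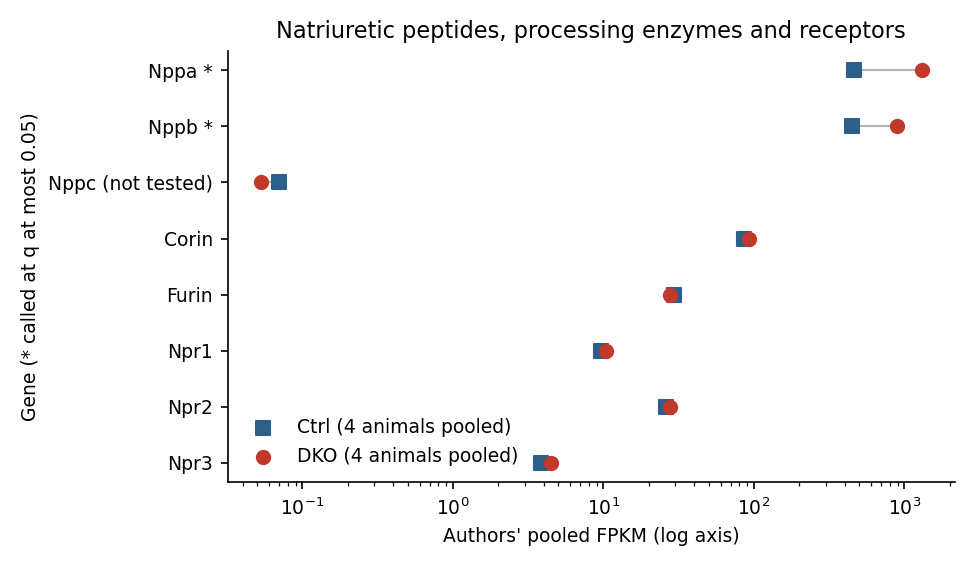
The authors' pooled FPKM of the 8 genes (log axis), with squares for Ctrl and circles for DKO, 1 value per genotype from 4 animals. Nppa (464 to 1303) and Nppb (448 to 899) are displaced to the right in DKO, while the pairs of symbols of Corin, Furin, Npr1, Npr2 and Npr3 overlap or nearly touch.

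The peptide genes were compared with each other next. Nppa and Nppb were close in level in Ctrl, where the ratio of their FPKM values was 1.04, and in DKO that ratio was 1.45. No test of the ratio could be made from pooled values. Together they made up 0.132% of all listed FPKM in Ctrl and 0.340% in DKO. In Ctrl they already stood at percentiles 98.2 (Nppa) and 98.2 (Nppb) of the tested genes by level, and in DKO at 99.5 and 99.2. The gain of 839 FPKM in Nppa ranked 4 among the 12133 tested genes, and the gain of 451 FPKM in Nppb ranked 7.

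Few abundant transcripts moved as far. In a comparison chosen after the values were seen, 812 tested genes had at least 100 FPKM in Ctrl, and 29 of them were called higher. Only 4 of these reached a fold of 2: Nppa, Ankrd1 (2.75-fold), Acta1 (2.02-fold) and Nppb. Ankrd1 encodes a stress-responsive ankyrin repeat protein of muscle, and Acta1 the skeletal isoform of actin. By fold alone, Nppa ranked 24 and Nppb 64 among all 893 called genes ordered from the largest rise.

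**Figure D2:**
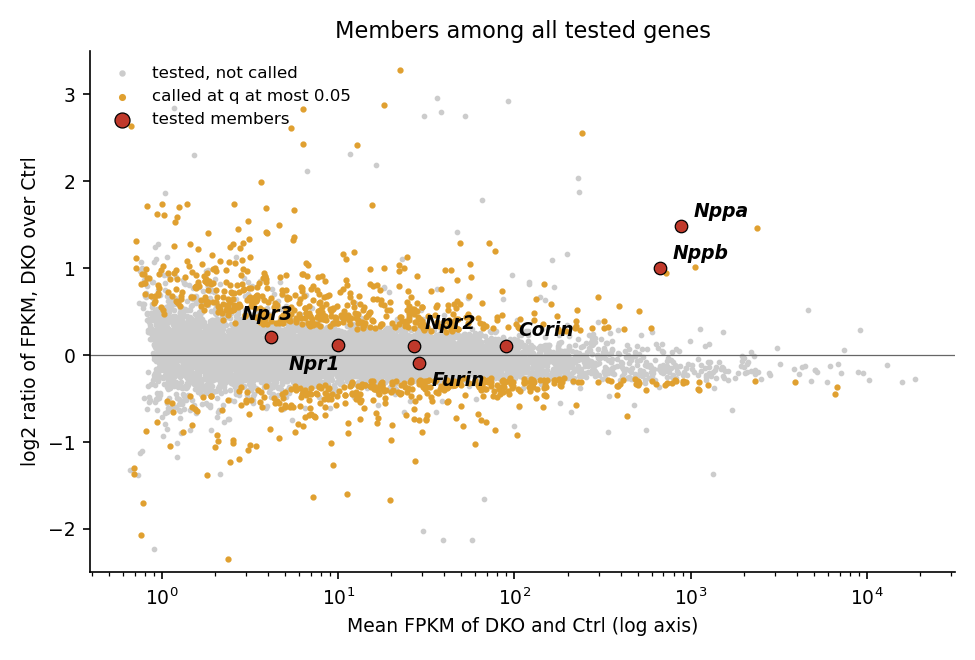
Log2 ratio of DKO over Ctrl against the mean FPKM of both groups (log axis) for all tested genes, with called genes in orange and the 7 tested genes of the natriuretic peptide system in red; 3 tested genes lie outside the axes, and genes at 0 in a group are not drawn. Nppa (1.49) and Nppb (1.00) lie above most tested genes of similar level, and the other 5 lie between -0.10 and 0.21 in the band where most genes were not called.

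The convertase genes were not called. In mm9, Corin lies at chr5:72691264-72895779 and Furin at chr7:87534080-87550317. Corin stood at 92.6 FPKM in DKO against 86.1 in Ctrl, which is 0.10 on the log2 scale (q = 0.714 in the authors' deposited table). Furin stood at 27.8 FPKM in DKO against 29.7 in Ctrl, which is -0.10 on the log2 scale (q = 0.755 in the authors' deposited table). Corin was thus the more abundant of the pair in both groups, by 2.90-fold in Ctrl and 3.34-fold in DKO. The summed level of Nppa and Nppb was 10.6 times that of Corin in Ctrl and 23.8 times in DKO. That sum includes Nppb, whose precursor furin cuts, and ratios of transcript levels give no amount of peptide or enzyme.

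The receptor genes were listed slightly higher in DKO, and none was called. In mm9, Npr1 lies at chr3:90254514-90269788, Npr2 at chr4:43644807-43664112 and Npr3 at chr15:11769652-11835429. Npr2 stood at 27.8 FPKM in DKO against 25.9 in Ctrl, or 0.11 on the log2 scale (q = 0.708 in the authors' deposited table). Npr1 was at 10.4 and 9.61 FPKM, or 0.12 on the log2 scale (q = 0.722 in the authors' deposited table). Npr3 was at 4.46 and 3.85 FPKM, or 0.21 on the log2 scale, and in the authors' deposited table its p of 0.0582 and q of 0.329 were the lowest of the 5 tested genes that were not called.

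The makeup of the receptor transcripts was nearly the same in both genotypes. Npr2 formed 65.8% of the summed FPKM of the 3 receptors in Ctrl and 65.2% in DKO, Npr1 24.4% in each, and Npr3 9.79% and 10.4%. The sum was 39.3 FPKM in Ctrl and 42.7 in DKO. Nppa exceeded Npr1, the receptor of its peptide, by 48.3-fold in Ctrl and 125-fold in DKO. These are ratios of transcript levels per length and give no amount of peptide or receptor.

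In Ctrl the order of levels was Nppa, Nppb, Corin, Furin, Npr2, Npr1, Npr3 and Nppc. In DKO the order differed only in that Npr2 and Furin, both at 27.8 FPKM, changed places. With no value per animal, it cannot be said which neighbours in this order differ beyond the spread between animals.

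The sizes that the authors' test called at similar levels were set beside those of the 5 tested genes that were not called. Within 1.5-fold of the mean FPKM of Corin, 84 of 787 tested genes were called, and the smallest absolute log2 ratio among them was 0.27, against 0.10 for Corin. The smallest called values were 0.27 near Furin (135 of 1945 called), 0.27 near Npr2 (130 of 2029) and 0.30 near Npr1 (162 of 2921), each above the value of the gene itself. Near Npr3 the smallest called value was 0.35 (150 of 2287), against 0.21 for Npr3. Each of these values is the smallest among many called genes and is no detection limit for the gene beside it. The median absolute log2 ratio of the called genes ran from 0.36 near Corin to 0.59 near Npr3. Larger differences in these 5 genes could therefore also go uncalled, and their levels are not shown to be equal.

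All 3 called isoforms of the group belonged to Nppa and Nppb, out of 14 tested isoforms, while 3.02% of all tested isoforms were called. Nppa had 2 isoforms from 1 start site. The reference isoform of 829 bases (NM_008725) stood at 700 FPKM in DKO against 237 in Ctrl, 2.95-fold higher. A shorter isoform of 544 bases, marked in the table as a splice variant of the reference (class j), was at 604 and 227 FPKM, 2.66-fold higher. The authors' deposited table gives q = 0.00312 for each. Both isoforms rose, and the reference isoform made up 51.2% of Nppa in Ctrl and 53.7% in DKO. The coding sequence table lists only the reference isoform of Nppa, so its coding level of 700 against 237 FPKM is lower than the gene total. Nppb had 1 isoform of 780 bases (NM_008726).

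The Npr3 isoforms were listed in opposite directions, with a gene total of 4.46 FPKM in DKO against 3.85 in Ctrl. The isoform of 6923 bases (NM_001039181) stood at 1.85 FPKM in DKO against 2.84 in Ctrl (q = 0.764 in the authors' deposited table). The isoform of 6926 bases (NM_008728) was at 2.61 and 1.01 FPKM (q = 0.558 in the authors' deposited table). Its share of Npr3 was 26.2% in Ctrl and 58.6% in DKO. Neither was called, and the 2 transcripts differ by 3 bases in length. Cuffdiff divides reads among isoforms by a model, so the values of transcripts this alike are less certain than the gene total.

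Corin had 5 isoforms, each with its own start site, and Furin 2. The Corin isoform of 4863 bases (NM_016869) was the most abundant, at 33.6 FPKM in DKO and 28.9 in Ctrl, or 36.3% and 33.6% of the gene. The other Corin isoforms ranged from 6.90 to 19.3 FPKM in DKO and from 8.37 to 22.9 in Ctrl. Of the 5 isoforms, 3 had log2 ratios above 0, up to 0.48, and 2 below, down to -0.28. Furin from the start of NM_001081454 stood at 17.3 FPKM in DKO against 16.2 in Ctrl, and from the start of NM_011046 at 10.4 and 13.5 FPKM. The share of the first was 62.5% in DKO and 54.5% in Ctrl. None of these was called as an isoform or as a start site group. Of the 13 start site groups of the 8 genes, including the untested one of Nppc, 2 were called (4.94% of all tested groups). Of the 10 coding sequences, again including the untested one of Nppc, 2 were called (4.64% of all tested). The called ones were those of Nppa and Nppb.

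**Figure D3:**
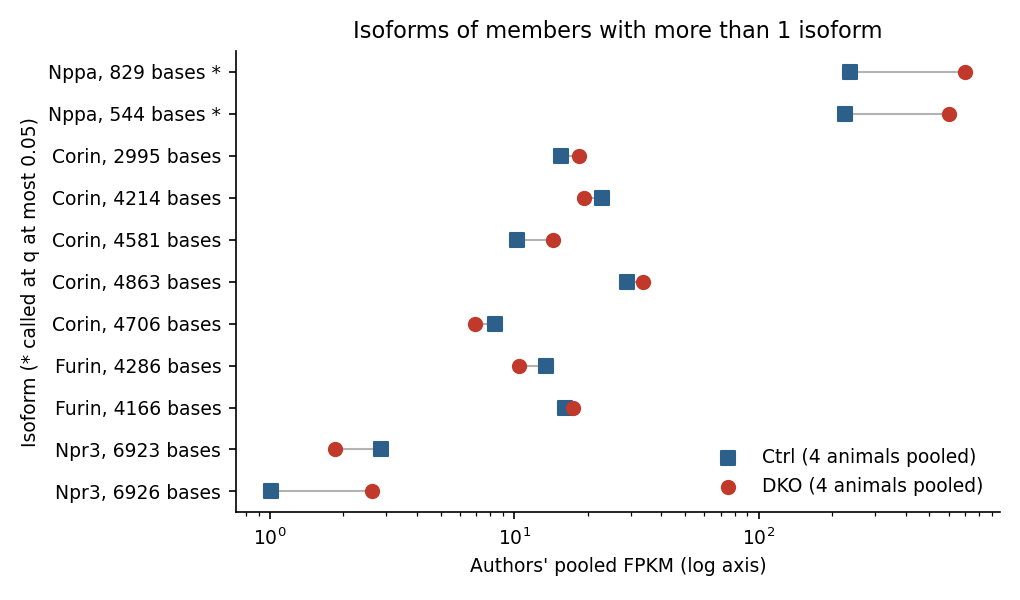
The authors' pooled FPKM (log axis) of each isoform of Nppa, Corin, Furin and Npr3, named by length in bases, with squares for Ctrl and circles for DKO. Both Nppa isoforms are higher in DKO, the Npr3 isoforms cross over between genotypes (2.84 to 1.85 and 1.01 to 2.61 FPKM), and only the Nppa isoforms were called.

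Nppb and Nppa are adjacent on mouse chromosome 4, with Nppb at 147359898 to 147361314 and Nppa at 147374855 to 147378774 in mm9, a gap of 13.5 kb. Within 250 kb of Nppa, 14 other tested genes were listed besides Nppb, and Cuffdiff called 0 of them, while 2 had a p under 0.05 in the authors' deposited table, next to 7.36% called among all tested genes. Their log2 ratios lay between -0.60 and 0.26, with a median of -0.04. Clcn6, which encodes an endosomal chloride transporter and starts 1.82 kb beyond Nppa, stood at 4.54 FPKM in DKO against 4.66 in Ctrl. On the other side, 2510039O18Rik was at 23.8 and 23.3 FPKM, and Mfn2, a mitochondrial fusion gene, at 333 and 346 FPKM. The calls in this stretch of chromosome were those of the 2 peptide genes. With 7.36% called among all tested genes, 0 of 14 says nothing particular about the neighbours.

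**Figure D4:**
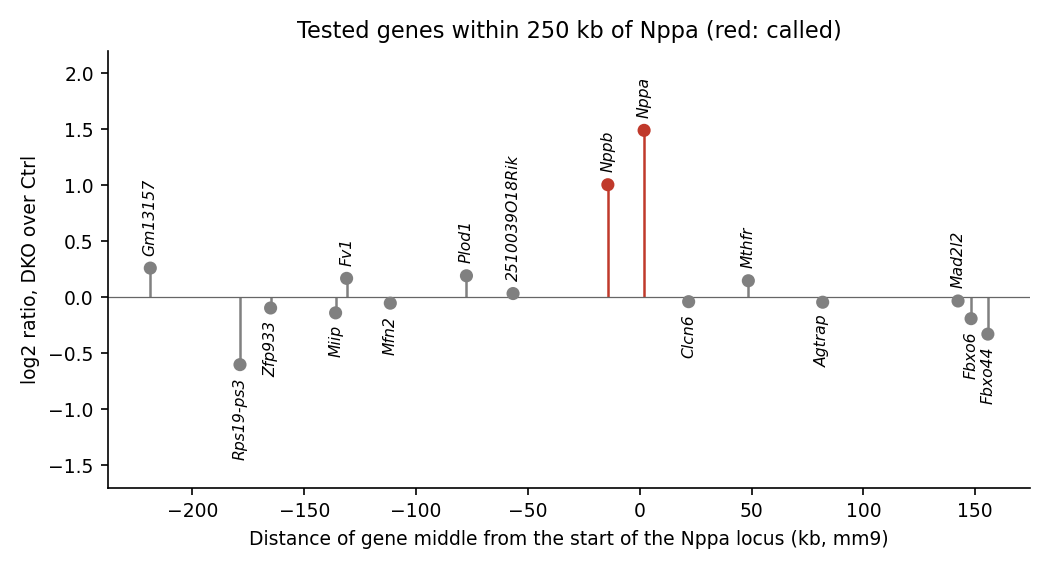
Log2 ratio of DKO over Ctrl for tested genes within 250 kb of Nppa, placed by the distance of the gene middle from the start of the Nppa locus in kb. Nppb (1.00) and Nppa (1.49), in red, were called, and the 14 other genes lie between -0.60 and 0.26.

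The genes nearest to each called peptide gene were sought by the distance between log2 FPKM values in DKO and in Ctrl, over 2 pooled values per gene. For Nppa these were a locus without a gene name on chromosome 3 at 63285069 to 63287798, with a transcript of 205 bases (957 and 497 FPKM, distance 0.46), then Nppb (0.54) and Acta1 (0.60). For Nppb they were the same unnamed locus (0.17), Ptgds, a prostaglandin D synthase gene (655 and 529 FPKM, 0.51), and Nppa (0.54). Nppa and Nppb were thus among the 3 nearest of each other. All of these were called higher, and 2 values per gene say little about likeness.

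A wider list of peptide processing and clearance genes was examined next, not limited to enzymes known to act on natriuretic peptides. Of 12 tested genes of peptide processing and clearance, 1 was called and 2 had a p under 0.05 in the authors' deposited table, a share of calls near the 7.36% of all tested genes, so the count says nothing particular about the list. The median log2 ratio of the 12 was 0.07, next to -0.00418 over all tested genes. The called gene was Pam, at 366 FPKM in DKO and 279 in Ctrl (1.31-fold higher, q = 0.00517 in the authors' deposited table). It encodes a peptide-amidating enzyme that is abundant in the membranes of atrial secretory granules. The most abundant others by Ctrl level were Ide, insulin-degrading enzyme (61.6 and 58.4 FPKM), Galnt1, which starts O-glycan chains (42.6 and 43.1 FPKM), and Ece1, endothelin-converting enzyme (25.7 and 24.7 FPKM). Chosen after their values were seen, Pcsk6, a convertase that activates corin, was at 27.7 and 24.5 FPKM (q = 0.357 in the authors' deposited table), and Mme, which encodes the peptide-degrading enzyme neprilysin, at 4.28 and 5.29 FPKM (q = 0.110 in the authors' deposited table).

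Downstream of the receptors, Cuffdiff called 0 of 11 tested cGMP effector genes, 0 of 9 cGMP phosphodiesterase genes and 0 of 6 genes for other guanylyl cyclases and nitric oxide synthases, and none of these genes had a p under 0.05 in the authors' deposited table. With 7.36% called among all tested genes, lists this short can hold no called gene, and their levels are not shown to be equal. The median log2 ratios of these lists were 0.05, -0.03 and -0.11, and single genes ranged from -0.31 to 0.19, from -0.18 to 0.33 and from -0.41 to 0.01. The value of -0.41 is that of Nos1ap, which encodes a binding partner of a nitric oxide synthase and no synthase itself. The most abundant effectors in Ctrl were Ppp1r12a, a myosin phosphatase subunit (20.1 FPKM in DKO and 19.5 in Ctrl), Rgs2, a regulator of G protein signaling (17.5 and 18.1 FPKM), and Vasp, a substrate of cGMP-dependent kinase on actin (19.5 and 17.9 FPKM). In the phosphodiesterase list the most abundant in Ctrl was Pde6d (35.9 and 34.0 FPKM), which encodes a subunit without enzyme activity. Next were Pde2a, which cGMP activates (22.1 and 23.0 FPKM), and Pde3a, which cGMP inhibits (20.2 and 22.8 FPKM). Of the other cyclase and synthase genes the most abundant in Ctrl was Nos3, endothelial nitric oxide synthase (11.6 and 12.6 FPKM). After it came Gucy1b3 and Gucy1a3, which encode subunits of soluble guanylyl cyclase (11.0 and 11.5 FPKM, and 7.14 and 7.70 FPKM).

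Of 30 tested genes for transcription factors and cofactors known to act on Nppa and Nppb, 1 was called and 3 had a p under 0.05 in the authors' deposited table, next to 7.36% called among all tested genes. The median log2 ratio was 0.01. Hopx, a homeodomain protein that binds SRF, stood at 467 FPKM in DKO against 316 in Ctrl (1.48-fold higher, q = 0.00158 in the authors' deposited table). Egr1, an immediate-early zinc finger factor, was at 95.3 and 86.3 FPKM, Nkx2-5, a cardiac homeodomain factor, at 59.6 and 60.4 FPKM, and Mef2d at 53.0 and 54.2 FPKM. Chosen after their values were seen, Gata4 was at 54.8 and 53.7 FPKM, Srf at 42.3 and 39.3 FPKM and Tead1 at 37.0 and 39.9 FPKM. Levels of RNA give no measure of the activity of these factors.

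Other genes of the cardiac stress program were higher beside the peptide genes. In a list of 21 tested genes without the 8, 14 were called higher and 0 lower, with a median log2 ratio of 1.12. Over all tested genes, 4.30% were called higher. Those not called included Xirp1, Xirp2, Fhl1 and Myh7 (287 FPKM in DKO and 246 in Ctrl, q = 0.264 in the authors' deposited table). The largest changes among the called genes were in Tnc, a matrix glycoprotein (log2 of 2.64), Gdf15, a secreted stress factor (2.61), Serpina3n, a protease inhibitor (1.72), and Ltbp2, a microfibril protein (1.53). Of these, Tnc (1.15 FPKM in DKO and 0.185 in Ctrl) and Ltbp2 (1.76 and 0.610 FPKM) stood at low levels. This list was drawn up with earlier results of these samples known, so it gives no separate support. By log2 ratio, Nppa (1.49) lay above its median and Nppb (1.00) below.

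Nppa is most abundant in atria, so atrial and other markers were set beside it. The atrial genes Myl7 (0.140 FPKM in DKO and 0.192 in Ctrl) and Sln (0.0671 and 0.367 FPKM) were near 0 in both groups and not tested, and Myl4 was at 3.58 and 3.69 FPKM. Of 7 tested atrial markers, Dkk3 and Pam were called higher and Kcnj3 lower, next to 7.36% called among all tested genes. The 10 listed atrial markers summed to 444 FPKM in DKO and 365 in Ctrl, of which Pam made up the most. Of 8 tested markers of conduction tissue, where Nppa and Nppb are also made, 2 were called lower and 0 higher. The pacemaker channel gene Hcn4 (2.27 FPKM in DKO, 3.38 in Ctrl) was among those called lower.

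Markers of several cell types moved with the peptide genes, and their part in the rise was not tested. The 12 cardiomyocyte markers were all listed lower in DKO, with a summed level of 69049 against 79892 FPKM and a median log2 ratio of -0.20, and Cuffdiff called 0 of them, with 3 at a p under 0.05 in the authors' deposited table. Against that median, the log2 ratios of Nppa and Nppb were 1.69 and 1.21, and that of Furin turned from -0.10 to 0.11. Of 10 macrophage markers, 9 were called higher (Mpeg1, Lyz2, Csf1r and Emr1 with the largest changes), and the sum was 420 against 272 FPKM. Of 10 fibroblast markers, 7 were called higher (Mfap5, Col3a1, Col1a2 and Lum with the largest changes), and the sum was 1365 against 1102 FPKM. Of 9 markers of smooth muscle and pericytes, 1 was called higher, Acta2, and the sum was 753 against 676 FPKM. Among all tested genes, 7.36% were called, 4.30% as higher. As counts, the 1 of 9 here and the 0 of 12 cardiomyocyte markers say nothing particular about these lists.

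Endothelial and endocardial markers bear on Npr1, Npr2 and Npr3, which endothelial, endocardial and stromal cells also express. Cuffdiff called 0 of 10 endothelial markers, with 1 at a p under 0.05 in the authors' deposited table, and their sum was 445 FPKM in DKO and 481 in Ctrl. It called 0 of 4 tested endocardial markers other than Npr3, with none at a p under 0.05 in the authors' deposited table, and the 6 listed ones summed to 67.7 and 67.0 FPKM. With 7.36% called among all tested genes, lists this short can hold no called gene. No marker list stood at 0 in either group.

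**Figure D5:**
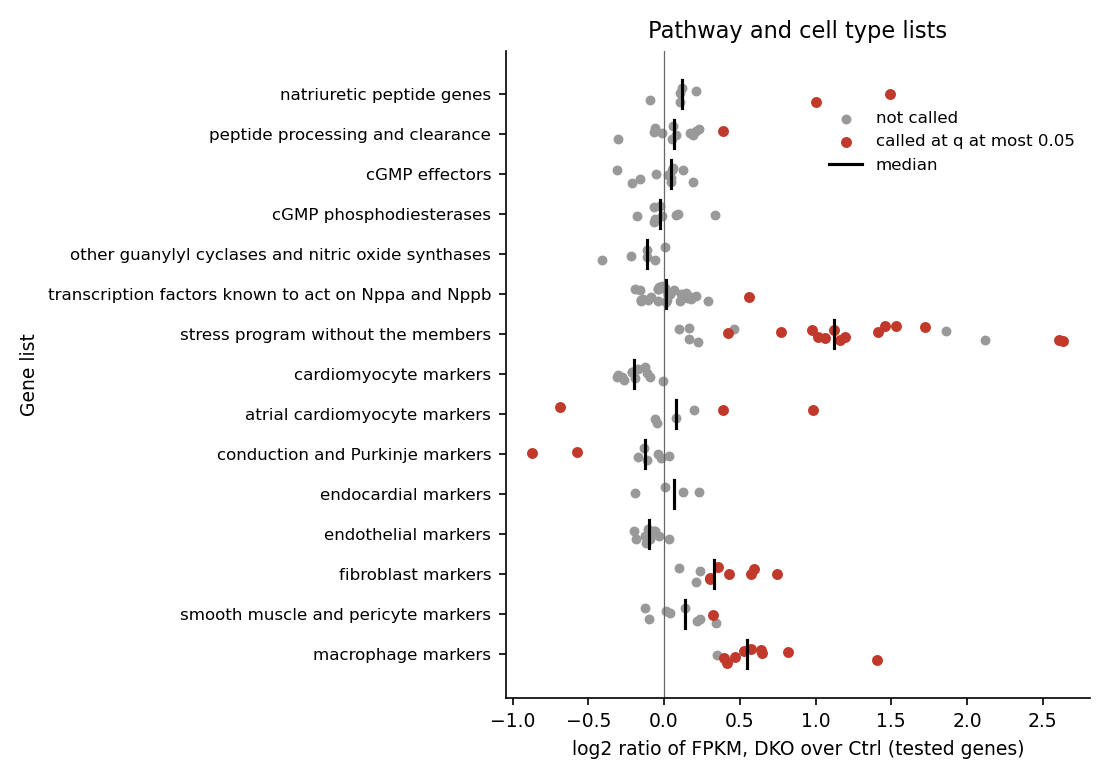
Log2 ratios of DKO over Ctrl for tested genes of the natriuretic peptide system and of each pathway and cell type list, with called genes in red, others in grey, and the list median as a black bar; the vertical scatter is only for legibility. Nppa and Nppb stand at 1.49 and 1.00, the cGMP lists lie around 0 with no called gene, and the stress list has a median of 1.12.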

How the data were processed

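Ventricular RNA of 4 Ctrl and 4 DKO mice was sequenced as single-end libraries. Per the submitters' processing notes, the authors used build mm9, TopHat2 2.0.9, Cufflinks 2.1.1 and Cuffdiff 2.1.1. For their annotation and settings, these were not given in the sources used here. Deposited tables have 1 FPKM value per genotype, pooled by the authors over its animals, with p-values and q-values of the authors' Cuffdiff test, per the file headers. The depth and the spread between animals are unknown, so no interval or test across animals was computed here. A smallest p-value of 5e-05 was shared by 385 genes in the deposited gene table.

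Log2 ratios were computed from the authors' FPKM as DKO over Ctrl, without a pseudocount. Genes marked OK by Cuffdiff counted as tested. The gene, isoform, start site and coding sequence tables were used, and the subset of called genes was not. Coordinates are written counting from 1: of 17144 loci with 1 transcript, 2419 had a width equal to the transcript length counting from 0 and 0 counting from 1. Named genes were the 8 members, up to 4 called genes per list by size of change, the 3 most abundant uncalled genes of the processing, cGMP and transcription factor lists, and the 3 nearest genes. 1 marker gene is not reported here. The members and lists were chosen with earlier results of these data known. Start regions of all 8 genes (9 regions) came from RefSeq. Counting and calling were tested on simulated data. Python 3.11.15, pandas 2.3.3, numpy 2.4.6 and matplotlib 3.10.9 were used.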

Additional observations from a re-analysis of the deposited data

How the results depend on the processing

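The count of 2 called genes, Nppa and Nppb, was 2 under each of 7 alternatives: a q of at most 0.01, a fold of at least 1.3, a mean FPKM of at least 1, the isoform, start site and coding sequence tables, and ratios centred on the median of all tested genes. The fold and FPKM alternatives could not have changed it, given the levels and folds of Nppa and Nppb. Calls rest on the authors' q, so centring could not change it either. Nor could a q of at most 0.01, as both genes carry q = 0.00158 in the authors' deposited table. The start site FPKM values repeat the gene values of both genes, and the isoform and coding values repeat those of Nppb. These outcomes therefore say nothing about stability, and only the Nppa isoform and coding values differ from the gene values. The pathway lists and a list of 14 chromosomal neighbours of Nppa and Nppb held 125 genes, tested or not. Of these, 16 were called, and 15 with a mean FPKM of at least 1. Over all tested genes, 7.36% were called, a share that leaves out untested genes. The stress list, drawn up with earlier results known, held 14 of the 16, and the others were Pam and Hopx. The log2 ratio of Nppa ranged from 1.49 to 1.69 and that of Nppb from 1.00 to 1.21 over pseudocount, scaling and feature level. The highest values came from centring on cardiomyocyte markers, which shifts every gene by 0.20. Signs changed for 2 genes that were not called: Furin, at 0.11 with that centring and 0.10 from its most abundant isoform, and Npr3, at -0.62 from its most abundant isoform.

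No paired analysis was possible because the tables hold 1 pooled value per genotype, and for the same reason leaving out an animal was not run. Replicates are 4 animals a group by the labels, and nothing here shows whether 1 animal carried the rise of Nppa or Nppb.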

Other observations

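Among the loci of the other genes of the system, called neighbours were found only near Npr1. Of 18 tested genes within 250 kb of Npr1, 2 were called, S100a13 (60.9 FPKM in DKO and 44.9 in Ctrl) and S100a4 (19.9 and 11.5 FPKM), both calcium-binding proteins and both higher. Cuffdiff called 0 of 4 tested genes near Nppc, 0 of 3 near Corin, 0 of 12 near Furin, 0 of 15 near Npr2 and 0 of 2 near Npr3, of which 0, 1, 2, 1 and 0 had a p under 0.05 in the authors' deposited table. With 7.36% called among all tested genes, counts this small, that near Npr1 included, say nothing particular about any of these loci.

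Ostn, which encodes osteocrin, a muscle-derived ligand of NPR-C, was listed at 0.248 FPKM in DKO against 0.0448 in Ctrl, without a test. At such levels the values allow no comparison. Among the start regions, the upstream one of the 2 RefSeq regions of Furin held 7 CpG dinucleotides and the downstream one 51, so the 2 starts of this gene lie in sequence of different makeup.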
